A study of Mus musculus with 8 samples.

Results

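The homeobox developmental regulators described here are the genes of 17 families of transcription factors (Hox counted as 1 family beside *Pax*, *Lhx*, *Dlx*, *Nkx*, *Irx*, *Msx*, *Meis*, *Pbx*, *Cdx*, *Pitx*, *Emx*, *Gbx*, *Barx*, *Vax*, *Tlx* and the sine oculis family of *Six4*). The members were chosen by gene symbol, with earlier results of these data known. The count table held 98 of them among 21950 genes, 32 of which were Hox genes; another 17 genes with such symbols are in the RefSeq annotation of the mouse and were not analysed here. Each gene was measured in 4 libraries of d6PGCLCs and 4 libraries of E12.5 PGCs, and the comparison asks how far germ cell-like cells made in culture resemble germ cells of the embryo in the expression of these regulators. PGCs are the precursors of eggs and sperm. The d6PGCLCs were obtained from BVSC-iPSCs, a single female iPSC line made from adult tail tip fibroblasts that carries the transgenic reporters Blimp1-Venus and Stella-ECFP. They were collected on day 8 of the culture, 6 days after differentiation toward PGCLCs had begun, as cells positive for both reporters. The E12.5 PGCs were sorted with FACS as SSEA1 and integrin β3 double-positive cells from the gonads of female C57BL/6J embryos at E12.5 and carried no such reporters. Each library was a separate pool of cells from an independent experiment. Culture, origin, stage and the markers used for sorting differ between the groups together and cannot be told apart. The authors' text gives no strain for the iPSC line, so strain may differ as well.

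Homeobox genes encode transcription factors that bind DNA through the homeodomain, a compact fold whose recognition helix lies in the major groove. Hox genes, arranged in chromosomal clusters, give cells of the body axis their position, and they are switched on in the order of their place in the cluster, with *Cdx* genes and retinoic acid among their inputs. The PBX and MEIS proteins bind DNA together with HOX proteins, whereas families such as PAX, LHX, NKX, MSX and DLX direct the formation of organs, sense organs and limbs. Mouse PGCs arise near tissue in which the Hox program begins and are known for keeping such somatic programs low.

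To show what the members share beyond their names, the stretch of coding sequence for the recognition helix was read from GENCODE M21 transcripts (GRCm38). A signature of tryptophan, phenylalanine, any residue, asparagine, any residue and arginine, searched in frame on the coding strand, was present in 92 of the 98 members and in 1.02% of 21877 protein-coding genes. *Barx1*, *Barx2*, *Pax2*, *Pax5*, *Pax8* and *Pax9* were without it, so that *Pax8*, described below, is a member by symbol and by its paired domain rather than by this stretch. The search allowed no other residue at the fixed positions, so a missing signature does not show that a gene lacks a homeodomain. The 48 bases around the signature are printed 5′ to 3′ for *Msx2* and *Six4*, the members with the most counts, for *Pbx4*, which differed most in favour of d6PGCLCs among the better-covered members, and for 2 posterior Hox genes, and capitals mark the 6 codons of the signature.
Msx2: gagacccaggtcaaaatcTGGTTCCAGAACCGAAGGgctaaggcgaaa
Six4: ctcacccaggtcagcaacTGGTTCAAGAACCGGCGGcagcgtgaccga
Pbx4: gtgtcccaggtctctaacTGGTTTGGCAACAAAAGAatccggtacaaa
Hoxb9: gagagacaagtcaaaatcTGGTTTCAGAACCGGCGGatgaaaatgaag
Hoxb13: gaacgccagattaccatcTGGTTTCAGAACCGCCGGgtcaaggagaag

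Of the 5 stretches shown, that of *Msx2* was closest to the Hox genes, with 35 of 48 positions identical to *Hoxb9* and 34 to *Hoxb13*, as many as the 34 shared by *Hoxb9* and *Hoxb13* themselves. It shared 29 positions with *Six4* and 27 with *Pbx4*, and *Six4* and *Pbx4* shared 26. The stretch lies in exon 2 of 2 of *Msx2* (chr13:53468379-53468426, minus strand), of *Hoxb9* (chr11:96274782-96274829, plus strand) and of *Hoxb13* (chr11:96196143-96196190, plus strand). It lies in exon 1 of 3 of *Six4* (chr12:73112369-73112416, minus strand), and in *Pbx4* it spans exon 5 (chr8:69866595-69866603) and exon 6 (chr8:69870029-69870067) on the plus strand.

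The libraries held between 7991437 and 12024841 counted reads. The limit of detection was set at 3 counts in a library, or 0.249 to 0.383 CPM (counts scaled to a common library total with TMM), which covers counting error only. All 16 germ cell markers examined were above that limit in both groups, with a sum of 5444 to 5951 CPM per d6PGCLC library and 5512 to 6190 CPM per E12.5 PGC library. The similar sums hide members that went both ways. By the test used below, 7 were higher and 7 lower in d6PGCLCs (43.8% each), beside 16.1% and 15.4% of all 21950 genes. All 16 had a mean of at least 10 counts per library, and 28.1% and 25.6% of the 11434 genes with such a mean were called. Markers of gonadal supporting and coelomic cells were low in both groups but their sum was higher in E12.5 PGCs. Of 20 measured, 9 (45%) were lower and 1 (5%) higher in d6PGCLCs by the test used below, beside 15.4% and 16.1% of all 21950 genes. Their summed level was 10.9 to 19.0 CPM for d6PGCLCs against 34.3 to 48.4 CPM for E12.5 PGCs. *Cbln1* (12.1 ± 2.26 CPM in E12.5 PGCs), *Nr0b1* (9.80 ± 2.42 CPM), *Podxl* (6.20 ± 2.83 CPM) and *Kitl* (2.69 ± 0.563 CPM) led that sum there (SD, n = 4), of which *Nr0b1* and *Podxl* did not pass the test (8.06 ± 1.35 and 3.26 ± 1.98 CPM in d6PGCLCs, edgeR adjusted p = 0.358 and 0.0517). *Wt1* and *Gata4*, which define this somatic lineage, had 42 and 36 counts in E12.5 PGCs (1.12 ± 0.575 and 0.922 ± 0.223 CPM) against 4 and 4 in d6PGCLCs, and were lower in d6PGCLCs (edgeR adjusted p = 0.00171 and 0.00134). *Nr5a1* had 18 counts against 4, and *Amh* had 3 against 4 (these 4 were chosen after their values were seen). The sum was highest in E12.5 PGC replicate 2, which also had the highest level of blood cell markers (32.9 CPM against 3.50 to 6.24 CPM in the other 3 libraries and 12.7 to 17.9 CPM in d6PGCLCs). *Hbb-y* alone gave 26.0 CPM in that replicate, and *Cd68* was at 12.6 ± 2.32 CPM in d6PGCLCs against 2.25 ± 1.07 CPM. The stromal and mesonephric markers summed to 19.5 to 58.5 CPM in d6PGCLCs, highest in replicate 4, against 21.9 to 30.3 CPM. Of 17 measured, 3 were higher and 3 lower in d6PGCLCs (17.6% each). The endothelial markers summed to 54.5 to 72.9 CPM against 37.2 to 64.4 CPM, and of 10 measured, 3 (30%) were higher and 0 lower. In bulk libraries, fewer cells of a type and less RNA per cell cannot be told apart.

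Many of the members were silent or nearly so in both kinds of cell. Of the 98 genes, 16 had no count in any library, 52 did not exceed 3 counts in any library, 31 exceeded it in both groups, 15 did so in E12.5 PGCs alone and 0 in d6PGCLCs alone. Over the whole table of 21950 genes, 4940 had no count, 7734 did not exceed 3 counts in any library, and 885 genes were at the limit in d6PGCLCs alone and 557 in E12.5 PGCs alone. The summed level of all members averaged 304 ± 17.9 CPM for d6PGCLCs and 424 ± 24.2 CPM for E12.5 PGCs (SD, n = 4), that is 295, 285, 309 and 326 CPM against 459, 415, 415 and 406 CPM, without overlap. A few genes carried the sum. *Msx2* alone gave 26.3% of all member counts, and *Msx2* and *Six4* together gave 37.7%.

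Where the groups differed, the regulators were mostly lower in d6PGCLCs. By edgeR's quasi-likelihood test, with p-values adjusted over the whole table after Benjamini-Hochberg and a threshold of 0.05, 24 members (24.5%) were lower and 4 (4.08%) higher, against 15.4% and 16.1% of all 21950 genes, and 70 passed in neither direction. The lower count was 22 to 24 and the higher count 2 or 3 when any 1 library was left out. Without E12.5 PGC replicates 2 and 4, the lower count was 20. Among the 26 members with a mean of at least 10 counts per library, 14 (53.8%) were lower, 3 (11.5%) higher and 9 neither, where 25.6% and 28.1% of the 11434 genes above that mean were called. By overlap, the lowest library of a group lay above the highest of the other for 15 of these 26 members in favour of E12.5 PGCs (57.7%; 24.1% of the 11434 genes) and for 3 in favour of d6PGCLCs (27.1% of the genes). The median log2 fold change of d6PGCLCs over E12.5 PGCs was −0.99 over the 26 members and 0.01 over the 11434 genes.

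**Figure D1:**
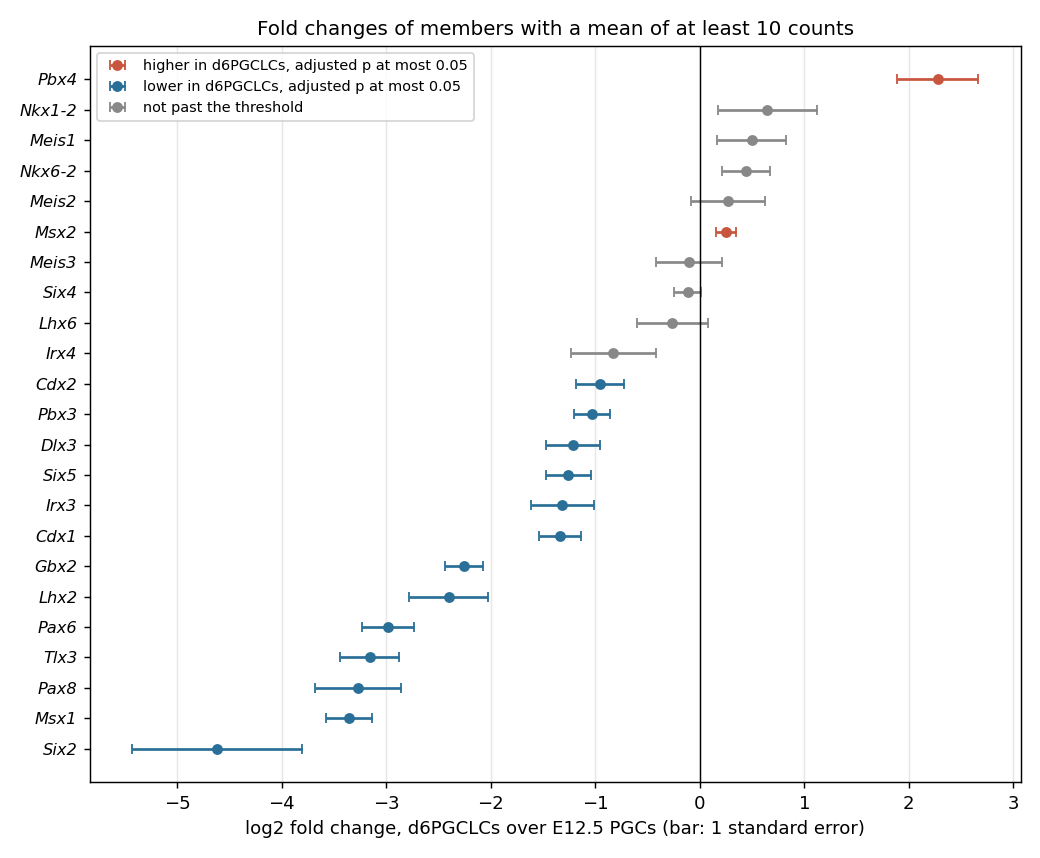
Log2 fold change of d6PGCLCs over E12.5 PGCs (x axis) for 23 of the 26 members with a mean of at least 10 counts (y axis), with bars of 1 standard error and colour for the outcome of edgeR's quasi-likelihood test. The 13 drawn genes that passed as lower run from *Six2* at −4.62 to *Cdx2* at −0.95, and the 2 drawn genes that passed as higher are *Pbx4* and *Msx2*.

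The Msx genes, transcriptional repressors that act downstream of BMP signals, differed between paralogs. *Msx1* (chr5:37820491-37824585) had 1.79, 1.63, 1.58 and 2.30 CPM in the d6PGCLC libraries and 19.34, 19.15, 21.02 and 14.71 CPM in the E12.5 PGC libraries. The groups were far apart, and the level was 10.2-fold higher in E12.5 PGCs (log2 fold change −3.35 ± 0.22 SE, edgeR quasi-likelihood adjusted p = 8.02e-11). *Msx2* (chr13:53466881-53472780) was the most abundant member in both groups, at 46.4 ± 3.15 RPKM (CPM per kilobase of counted exon) in d6PGCLCs and 39.0 ± 1.66 RPKM in E12.5 PGCs. Its levels were 93.8, 105, 110 and 108 CPM against 89.8, 90.6, 82.4 and 86.6 CPM, every d6PGCLC library being above every E12.5 PGC library, but the difference was small (log2 fold change 0.25 ± 0.09, edgeR adjusted p = 0.0446). That call was lost under 3 other scalings (adjusted p between 0.0537 and 0.0951) and in 6 of the 8 fits without 1 library. *Msx1* made up 1.58% to 2.33% of the summed Msx RPKM of a d6PGCLC library and 15.8% to 21.9% of that of an E12.5 PGC library, while the sum itself overlapped between the groups (42.7 to 49.7 and 46.2 to 50.5 RPKM). *Msx3*, whose known expression is in the dorsal neural tube, had no count in d6PGCLCs and 12, 12, 11 and 8 counts in E12.5 PGCs, at least 3.46-fold above the limit (chosen after its values were seen).

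Paralogs also parted ways among the sine oculis genes, which act with EYA cofactors in kidney, muscle and sense organs. *Six4* (chr12:73099609-73114031), second in abundance in both groups, was at 50.3, 33.7, 39.4 and 37.2 CPM in d6PGCLCs and at 47.5, 39.3, 43.2 and 43.7 CPM in E12.5 PGCs. These levels overlapped (log2 fold change −0.11 ± 0.13, edgeR adjusted p = 0.633). *Six2* (chr17:85662736-85688254), which keeps nephron progenitors in the embryonic kidney, had 0, 0.407, 0 and 0.121 CPM against 5.49, 3.26, 3.50 and 2.08 CPM. It rests on 5 counts in all d6PGCLC libraries together, and the ratio of the summed levels was 26.2 in favour of E12.5 PGCs (95% exact interval 10.9 to 81.9 for counting error; edgeR adjusted p = 1.99e-06). Without d6PGCLC replicate 2, which held 4 of these counts, the log2 fold change went from −4.62 to −6.19. *Six5* was 2.39-fold lower in d6PGCLCs, with 4.07 to 5.56 CPM against 8.30 to 14.6 CPM (edgeR adjusted p = 7.03e-05), and *Six6*, an eye and pituitary gene, was at the limit in both groups.

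The PBX proteins are TALE-class homeodomain cofactors, so called for an extra loop of residues in the homeodomain. *Pbx3* (chr2:34171457-34372045) was lower in d6PGCLCs, with 12.64, 12.22, 11.04 and 11.03 CPM against 30.19, 18.20, 27.02 and 20.49 CPM (log2 fold change −1.03 ± 0.17, edgeR adjusted p = 5.4e-05). *Pbx4* (chr8:69832476-69872292), known for its expression in the testis, moved the other way, with 3.19, 2.24, 3.32 and 3.15 CPM against 0.374, 0.526, 0.922 and 0.542 CPM. At 4.85-fold it was the member with the largest rise in d6PGCLCs among these better-covered members (log2 fold change 2.28 ± 0.39, edgeR adjusted p = 3.65e-05), and the call held without any 1 library (adjusted p of at most 0.000227).

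The ratio of paralogs in each library is given as a description, on the log2 scale of RPKM and without a test, for 3 pairs chosen because their levels had moved apart. The ratio of *Msx1* to *Msx2* ran from −5.96 to −5.39 in d6PGCLCs and from −2.40 to −1.81 in E12.5 PGCs. For *Pbx4* to *Pbx3* it ran from −0.74 to −0.02 and from −4.62 to −3.16, and for *Six5* to *Six4* from −3.87 to −3.33 and from −2.90 to −2.20. These ratios do not depend on the scaling of the libraries.

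**Figure D2:**
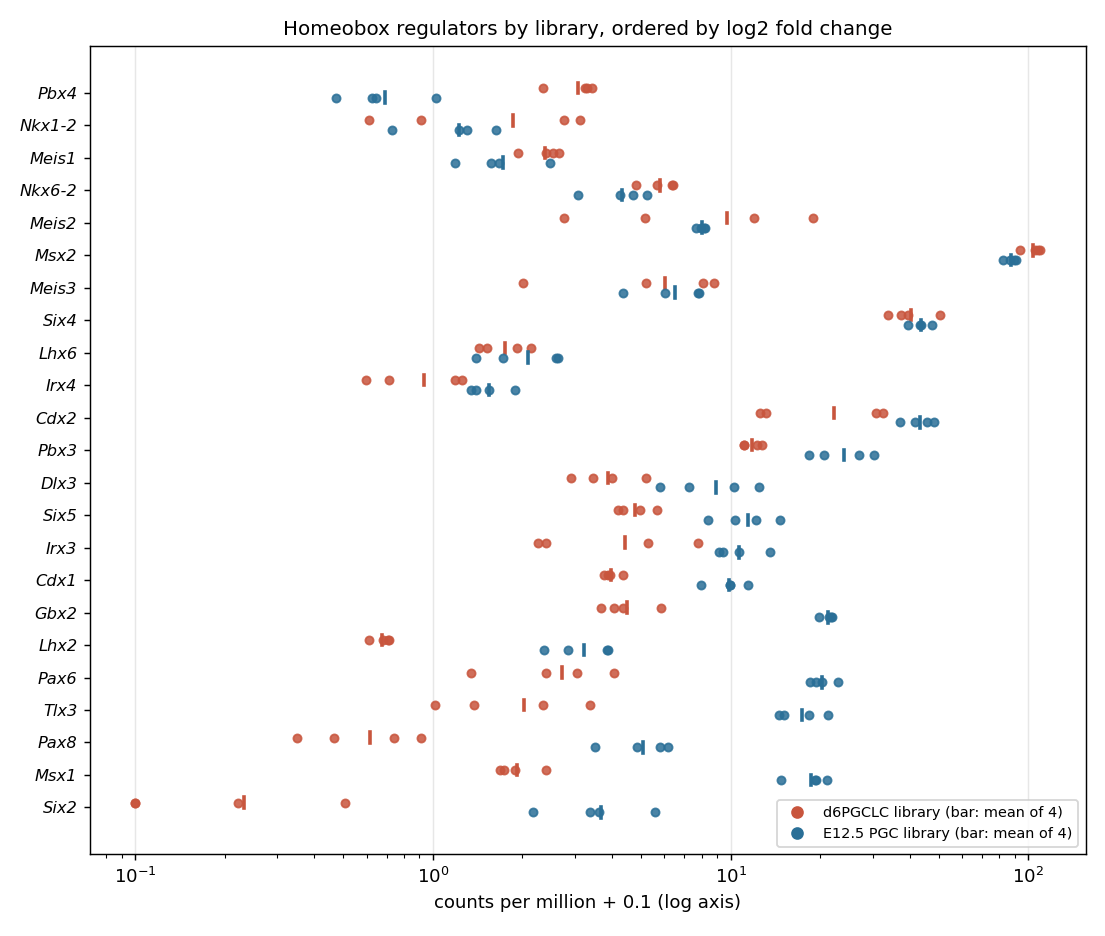
Level of 23 of the 26 members with a mean of at least 10 counts in each of the 8 libraries, as CPM + 0.1 on a log axis (x axis), with genes ordered by log2 fold change (y axis), a point for each library and a bar for the mean of 4. *Msx2* is the highest in both groups, the points of *Msx1*, *Tlx3*, *Pax6* and *Gbx2* stand apart by group, and *Meis2*, *Meis3* and *Cdx2* are spread among the d6PGCLC libraries.

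Among the other TALE genes, the 3 Meis genes, partners of PBX and HOX proteins, did not pass the test in either direction. *Meis2* (chr2:115861264-116067537) had 18.8, 11.9, 5.06 and 2.67 CPM in d6PGCLCs, on both sides of the narrow range of 7.56 to 8.10 CPM in E12.5 PGCs (log2 fold change 0.27 ± 0.35, edgeR adjusted p = 0.723). *Meis3* (chr7:16174012-16186510) was spread in the opposite order, with 1.91, 5.09, 7.97 and 8.73 CPM in the same d6PGCLC libraries and 4.24, 7.68, 5.90 and 7.76 CPM in E12.5 PGCs (edgeR adjusted p = 1). Left without d6PGCLC replicate 1, both changed sign, to −0.26 for *Meis2* and 0.17 for *Meis3*. *Meis1* was at 1.83 to 2.55 CPM against 1.08 to 2.37 CPM (edgeR adjusted p = 0.31). *Irx3* (chr8:91798511-91801654), a regulator of neural and limb patterning, had 7.66, 5.19, 2.16 and 2.30 CPM against 10.6, 13.5, 9.31 and 9.03 CPM and was lower in d6PGCLCs (log2 fold change −1.32 ± 0.30, edgeR adjusted p = 0.00144). *Irx4*, a gene of the heart ventricle, did not overlap between the groups (0.498 to 1.15 and 1.25 to 1.79 CPM) but did not pass the test (adjusted p = 0.14).

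The Pax genes, defined by a paired domain, were led by *Pax6* and *Pax8* and were otherwise at or near the limit. *Pax6* (chr2:105668896-105698410), which directs eye, brain and pancreas formation, had 3.96, 2.95, 1.24 and 2.30 CPM in d6PGCLCs and 19.2, 20.2, 18.3 and 22.8 CPM in E12.5 PGCs. Each E12.5 PGC library was above each d6PGCLC library, with a fitted difference of 7.91-fold (log2 fold change −2.98 ± 0.25, edgeR adjusted p = 3e-09). *Pax8* (chr2:24420551-24475599), a gene of the thyroid, kidney and Müllerian duct, had 0.638, 0.814, 0.249 and 0.364 CPM against 4.74, 5.68, 3.41 and 6.05 CPM (log2 fold change −3.27 ± 0.41, edgeR adjusted p = 3.89e-07). *Pax3* and *Pax4* had no count in any library, *Pax2*, *Pax5* and *Pax9* were at the limit in both groups, and *Pax7* had 6 counts in d6PGCLCs and 8 in E12.5 PGCs in all.

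*Tlx3* and *Gbx2*, both best known from the nervous system, showed differences of similar clarity. *Tlx3* (chr11:33200752-33203588), a selector of sensory neuron fate, had 1.28, 0.916, 2.24 and 3.27 CPM against 14.47, 21.15, 15.03 and 18.23 CPM (log2 fold change −3.16 ± 0.28, edgeR adjusted p = 7.27e-09). It was 4th in abundance among the members in E12.5 PGCs (10.4 ± 1.88 RPKM) and 17th in d6PGCLCs (1.17 ± 0.640 RPKM). *Gbx2* (chr1:89927962-89931176), which positions the border of midbrain and hindbrain and is also expressed in pluripotent cells, had 3.96, 3.56, 5.73 and 4.24 CPM against 21.3, 21.8, 19.7 and 21.6 CPM. Its spread within E12.5 PGCs was small, 21.1 ± 0.934 CPM, and the level was 4.77-fold higher there (log2 fold change −2.25 ± 0.18, edgeR adjusted p = 2.83e-09). Per length, the mean levels of *Msx1*, *Tlx3*, *Pax6* and *Gbx2* in E12.5 PGCs ran from 7.29 RPKM for *Pax6* to 10.4 RPKM for *Tlx3*. In the same libraries the supporting cell markers *Cbln1*, *Wt1* and *Gata4* were at 4.91, 0.319 and 0.251 RPKM (*Cbln1* at 0.754 RPKM in d6PGCLCs). *Nr0b1*, of the same list, was at 5.23 RPKM there and 4.30 RPKM in d6PGCLCs. It did not pass the test (edgeR adjusted p = 0.358) and so does not set the groups apart. The part of somatic cells in the differences of *Msx1*, *Tlx3*, *Pax6* and *Gbx2* was not tested.

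Of the 3 Cdx genes, caudal regulators that activate Hox genes in the posterior embryo, 2 were lower in d6PGCLCs. *Cdx2* (chr5:147300900-147307249) was uneven among the d6PGCLC libraries, with 12.51 and 13.03 CPM in replicates 1 and 2 and 32.44 and 30.67 CPM in replicates 3 and 4, all below the 48.16, 37.04, 45.55 and 41.70 CPM of E12.5 PGCs (log2 fold change −0.95 ± 0.23, edgeR adjusted p = 0.00238). *Cdx1* had 3.83, 3.77, 3.65 and 4.24 CPM against 7.86, 9.89, 9.87 and 11.4 CPM (log2 fold change −1.34 ± 0.21, edgeR adjusted p = 1.97e-05). The third gene, *Cdx4*, had 2 counts in all 8 libraries together.

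Of the Dlx genes, regulators of craniofacial and limb structures, *Dlx3* had 2.81, 3.36, 3.90 and 5.09 CPM in d6PGCLCs and 12.4, 5.68, 10.1 and 7.13 CPM in E12.5 PGCs and was lower in d6PGCLCs (log2 fold change −1.21 ± 0.26, edgeR adjusted p = 0.0008). *Lhx2*, a LIM-homeodomain gene of forebrain and hair follicle, was lower too, at 0.511 to 0.611 CPM against 2.26 to 3.78 CPM (log2 fold change −2.40 ± 0.38, edgeR adjusted p = 1.47e-05), whereas *Lhx6* overlapped (1.33 to 2.04 and 1.29 to 2.53 CPM, adjusted p = 0.711). Among the Nkx genes, *Nkx6-2* did not pass, at 4.73 to 6.31 against 2.98 to 5.16 CPM (edgeR adjusted p = 0.177), nor did *Nkx1-2*, at 0.511 to 3.03 against 0.631 to 1.53 CPM (adjusted p = 0.369).

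**Figure D3:**
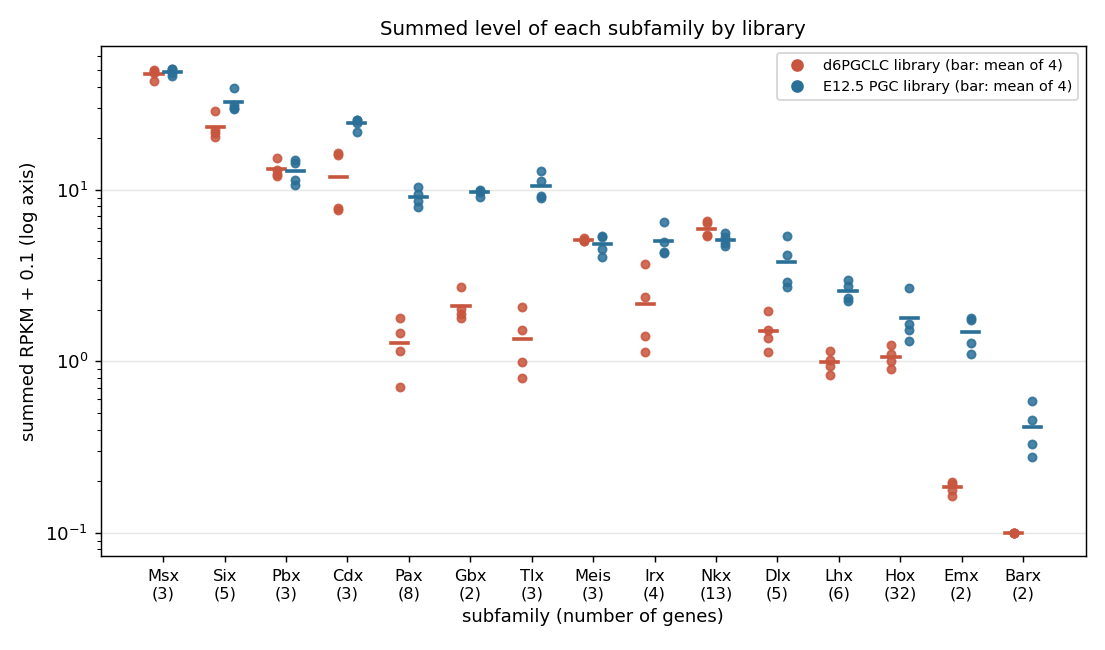
Summed RPKM + 0.1 of each family on a log axis (y axis) in each of the 8 libraries, with points for libraries, bars for the mean of 4 and the number of genes of a family in brackets (x axis); the 32 Hox genes are summed into 1 group and *Vax1*, with no count, and the Pitx genes are not drawn. The Msx and Pbx sums overlap between the groups, and the Pax, Gbx and Tlx sums of E12.5 PGCs lie above those of d6PGCLCs in every library.

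A further 10 members with a mean of under 10 counts were called lower in d6PGCLCs, and 1 was called higher. Of the 21950 genes, 11434 had a mean of at least 10 counts, and of the rest 463 were called lower and 321 higher. The 10 members passed on counts that were near 0 in d6PGCLCs (those named here outside the Hox clusters, other than *Emx1* and *Barx1*, were chosen after their values were seen). *Emx1*, a gene of the dorsal forebrain, had 1 count in each d6PGCLC library and 16, 18, 15 and 12 counts in E12.5 PGCs, a ratio of 14.7 (95% exact interval 5.45 to 55.6; edgeR adjusted p = 1.69e-05). *Barx1*, a gene of stomach and tooth mesenchyme, had none and 2, 7, 3 and 3 counts (at least 1.18-fold above the limit; edgeR adjusted p = 0.00508), and its call was lost without E12.5 PGC replicates 2 and 4 (adjusted p = 0.0576). That bound rests on E12.5 PGC replicate 2, since no other library exceeded 3 counts. *Emx2*, needed for the urogenital ridge and a member that marks coelomic and gonadal somatic cells, had none and 2, 6, 3 and 5 counts, or 0.402 ± 0.177 CPM in E12.5 PGCs. *Lhx9*, another gene of the early gonadal soma, did not pass (0.129 ± 0.0269 and 0.338 ± 0.278 CPM, edgeR adjusted p = 0.288). *Dlx1*, *Dlx5*, *Lhx4*, *Nkx2-2* and *Msx3* also had no count in d6PGCLCs; the call of *Nkx2-2* was lost without any 1 of the 8 libraries and that of *Dlx5* without any 1 of 4. Of the 8 lower-called genes outside the Hox clusters with so few counts, *Emx1* was at 1.23 RPKM in E12.5 PGCs and the others at 0.0965 to 0.475 RPKM. Among the 9 of 20 supporting cell markers called lower in d6PGCLCs, *Cbln1* was at 4.91, *Kitl* at 0.469, *Wt1* at 0.319 and *Gata4* at 0.251 RPKM there. Among the 10 called in neither direction, *Nr0b1* was at 5.23, *Podxl* at 1.10, *Sox9* at 0.0599 and *Amh* at 0.0406 RPKM, and 1 was called higher. The part of somatic cells in these differences was not tested.

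Hox genes were nearly silent in both kinds of cell. Of the 32 Hox genes, 11 had no count in any library and 28 did not exceed 3 counts in any library. All Hox counts together came to 12, 16, 20 and 18 in the d6PGCLC libraries and to 46, 33, 36 and 34 in the E12.5 PGC libraries, without overlap. *Hoxb9* and *Hoxa10* held 3 and 2 of the d6PGCLC counts and 53 and 40 of those of E12.5 PGCs. The Hoxc genes did not share this difference. Their sums overlapped, with 5, 5, 10 and 6 counts in d6PGCLCs and 4, 7, 3 and 6 in E12.5 PGCs (26 and 20 in all), and no Hoxc gene was called. Scaled, the sum was 1.75 ± 0.293 CPM against 3.90 ± 1.24 CPM (SD, n = 4), and per length it was 0.961 ± 0.143 RPKM against 1.70 ± 0.608 RPKM, below *Cdx1* alone in either group (2.07 ± 0.138 and 5.21 ± 0.771 RPKM). By edgeR's quasi-likelihood test 0 Hox genes were higher and 2 lower in d6PGCLCs (6.25% of the 32), beside 16.1% and 15.4% of all genes. The likelihood ratio test and DESeq2 gave the same 0 and 2, as did an unadjusted p under 0.05. No Hox gene had a mean of at least 10 counts. Of the 21950 genes, the 11434 with such a mean held 2924 of the 3387 lower and 3211 of the 3532 higher calls. The shares of all genes are thus not matched to the Hox genes in coverage.

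The counts that there were came mostly from the posterior end of the clusters. Genes of paralog groups 1 to 3 (4 genes) had 1 count in d6PGCLCs and 1 in E12.5 PGCs in all, those of groups 4 to 8 (14 genes) had 8 and 9, and those of groups 9 to 13 (14 genes) had 57 and 139. *Hoxb9* (chr11:96271330-96276595), which helps to pattern the thorax, had 1, 1, 1 and 0 counts in d6PGCLCs and 15, 8, 19 and 11 in E12.5 PGCs. The ratio of the summed levels was 17.0 (95% exact interval 5.51 to 85.1; edgeR adjusted p = 6.18e-05), and the gene was named after its values were seen. *Hoxa10* (chr6:52231197-52240854), a gene of the lumbar axis and of the uterus, had 0, 0, 0 and 2 counts against 13, 8, 5 and 14, a ratio of 19.2 (4.99 to 164; edgeR adjusted p = 0.000643). Without d6PGCLC replicate 4, which held these 2 counts, its log2 fold change went from −3.98 to −6.36. In E12.5 PGCs *Hoxb9* and *Hoxa10* stood at 0.491 ± 0.188 RPKM and 0.396 ± 0.191 RPKM. Supporting cell markers in the same libraries lay on both sides. Among the 9 of 20 called lower in d6PGCLCs were *Cbln1* at 4.91, *Fst* at 0.591, *Kitl* at 0.469, *Rspo1* at 0.433, *Wt1* at 0.319 and *Gata4* at 0.251 RPKM. Among the 10 called in neither direction were *Nr0b1* at 5.23, *Podxl* at 1.10, *Sox9* at 0.0599 and *Amh* at 0.0406 RPKM. The 1 called higher, *Krt19*, was at 0.0629 RPKM. The part of somatic cells in these differences was not tested. *Hoxb13* and *Hoxc13*, the terminal genes of their clusters, were the only Hox genes above the limit in both groups. *Hoxb13* (chr11:96194316-96196610) had 4, 7, 9 and 7 counts in d6PGCLCs and 5, 6, 3 and 1 in E12.5 PGCs (edgeR adjusted p = 0.32). *Hoxc13* (chr15:102921131-102928814) had 1, 3, 8 and 5 against 4, 6, 2 and 5, or 17 in each group (adjusted p = 1). *Hoxd9*, the *Hoxd* gene with the most counts over all libraries, had 2 counts in d6PGCLCs and 7 in E12.5 PGCs in all. Together *Hoxb9*, *Hoxa10*, *Hoxb13* and *Hoxc13* held 49 of the 66 Hox counts of d6PGCLCs and 125 of the 149 of E12.5 PGCs.

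**Figure D4:**
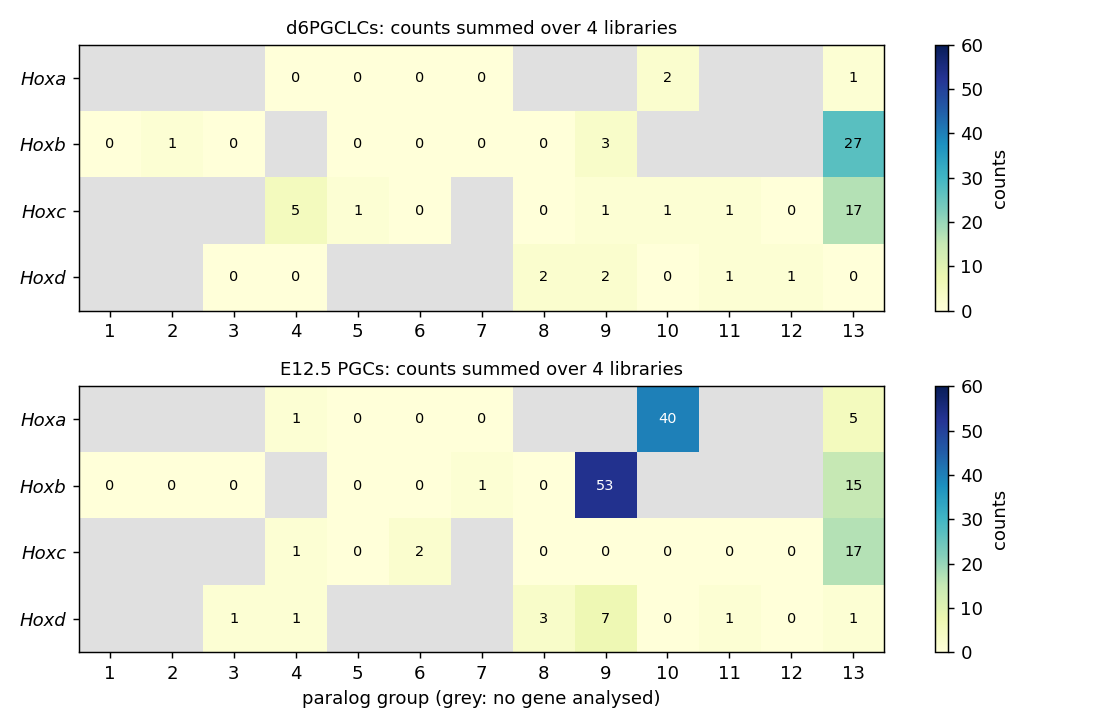
Counts of each Hox gene summed over the 4 libraries of d6PGCLCs (upper panel) and E12.5 PGCs (lower panel), by cluster (y axis) and paralog group (x axis), with the count written in each cell, darker colour for more counts and grey where no gene was analysed. In E12.5 PGCs most counts lie at paralog groups 9, 10 and 13, with 53 for *Hoxb9* and 40 for *Hoxa10*, and in d6PGCLCs most lie at group 13, with 27 for *Hoxb13*.

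Of 24 measured members of a list of retinoic acid, Wnt, FGF and chromatin inputs, 15 (62.5%) were lower and 2 (8.33%) higher in d6PGCLCs by edgeR's test, beside 15.4% and 16.1% of all genes. Of the 14 with a mean of at least 10 counts, 10 were lower and 1 higher, with a median log2 fold change of −0.91, where 25.6% and 28.1% of the 11434 genes above that mean were called. *Kmt2b*, a histone H3 lysine methyltransferase, was slightly lower (log2 fold change −0.38 ± 0.09, edgeR adjusted p = 0.00212), and *Crabp1*, which binds retinoic acid in the cytoplasm, had 18.1 ± 3.31 CPM against 42.6 ± 5.43 CPM (log2 fold change −1.25 ± 0.15, adjusted p = 9.07e-07). *Kmt2a*, the methyltransferase that maintains Hox expression in many tissues, had 152 ± 28.3 CPM against 413 ± 72.5 CPM (log2 fold change −1.45 ± 0.12, edgeR adjusted p = 7.93e-09), and the retinoic acid receptor gene *Rarg* had 36.6 ± 7.96 CPM against 65.6 ± 6.96 CPM (both chosen after their values were seen). *Tbx6* and *Fgf4* were the genes of the list that were higher in d6PGCLCs.

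Of 62 measured homeobox genes outside the 17 families, 6 (9.68%) were higher and 15 (24.2%) lower in d6PGCLCs, beside 16.1% and 15.4% of all genes. The pluripotency regulators *Pou5f1* (1632 ± 157 CPM against 980 ± 107 CPM) and *Nanog* (610 ± 79.5 CPM against 257 ± 22.4 CPM) had the highest levels per length among them and were higher in d6PGCLCs (edgeR adjusted p = 2.21e-06 and 2.29e-09). In RPKM, both lay above each of the 98 regulators in either group. *Tgif2*, a TALE repressor, was higher as well, at 538 ± 31.8 CPM against 329 ± 21.6 CPM (adjusted p = 8.06e-07), whereas *Pknox1*, a TALE partner of PBX proteins, was at 70.6 ± 5.17 CPM and 73.7 ± 6.73 CPM (adjusted p = 0.833; both chosen after their values were seen).

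Exons of several members overlap other annotated genes, and whether the counting used strand is not given in the sources used here, so that their counts may hold reads of the partner. In GENCODE M21 this applies on the opposite strand, among others, to *Gbx2* (946 exonic bases shared with *D130058E05Rik*), *Meis1* (896 with *Gm16140*), *Nkx1-2* (541 with *Gm16764*), *Pax8* (367 with *Gm13415*), *Dlx1* (335 with *Dlx1as*), *Nkx2-2* (278 with *Nkx2-2os*), *Emx2* (264 with *Emx2os*), *Nkx6-2* (246 with *Inpp5a*), *Pax5* (636 with *5730488B01Rik*), *Six6* (192 with *4930447C04Rik*), *Pax9* (189 with *Slc25a21*), *Lhx3* (188 with *Gm27196*) and *Irx3* (124 with *Irx3os*). On the same strand, *Meis1* shared 1029 exonic bases with *Gm37818* and *Lhx6* 104 with *Gm27953*. *Msx1*, *Msx2*, *Tlx3*, *Pax6*, *Hoxa10*, *Hoxb9*, *Hoxb13*, *Hoxc13*, *Six2*, *Six4*, *Six5*, *Pbx3* and *Pbx4* had no such overlap.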

How the data were processed

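RNA from 4 d6PGCLC and 4 E12.5 PGC pools, each of an independent experiment, was sequenced single-end as stranded poly(A) libraries. The authors aligned to GRCm38 with STAR and deposited raw counts of uniquely mapped reads on the exons of 1 randomly chosen isoform per gene, with the exonic length of that isoform. No normalization was applied to the deposited counts, and genes with overlapping promoters had been thinned at random. Groups were taken from the sample labels.

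Of 21950 Entrez identifiers, 21907 were matched to a symbol and coordinates in the RefSeq annotation of GRCm38. Members were all genes whose symbol fits the family names. Counts were fitted with edgeR 4.0.16 in R 4.3.3 (TMM, glmQLFit and glmQLFTest, prior count 0.125, cell type as the only term), without a filter on low counts, and p-values were adjusted over all 21950 genes. CPM used the library totals (7991437 to 12024841 counts) scaled with TMM factors, and RPKM divided CPM by the deposited length. A fold against a group without counts was set against 3 counts per library, and ratios of sparse genes carry exact 95% intervals. Named are members with a mean of at least 10 counts, the most abundant member of a family with at least 1, the 2 most abundant genes of the lists of other homeobox genes and of inputs, and further genes chosen after their values were seen. All members enter the counts and sums, but 4 of those that meet this rule are not reported here. The members and lists were chosen with earlier results of these data known.

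Other settings tried were DESeq2 1.42.0, edgeR's likelihood ratio test, 3 other scalings (library size, RLE, upper quartile), 2 filters (CPM above 1 in at least 3 libraries, filterByExpr), a replicate block, a prior count of 2, thresholds of 0.01 on the adjusted p or of 2 on the absolute log2 fold change, and the removal of each library. Leaving out E12.5 PGC replicates 2 and 4 together was added after seeing the data; of these, replicate 2 had the highest supporting cell and blood marker sums, and none of the marker sums was highest in replicate 4. Libraries of the same group all differed by more than sampling noise (chi-square over degrees of freedom 3.35 to 22.1).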

Additional observations from a re-analysis of the deposited data

Results flagged for a closer look

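In 4 of 59 sets of 4 libraries examined for the named members, 1 library stood apart from the other 3 by more than Dixon's criterion allows, where chance gives about 1 in 20, or 2.95. *Pbx4* had 2.24 CPM in d6PGCLC replicate 2 and 3.15 to 3.32 CPM in the other 3. The remaining sets rest on few counts. *Barx1* had 0.737 CPM in E12.5 PGC replicate 2 against 0.250 to 0.277 CPM, *Hoxa10* had 0.242 CPM in d6PGCLC replicate 4 against 0, and *Hoxd9* had 0.255 CPM in d6PGCLC replicate 1 against 0.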

How the results depend on the processing

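Of 588 values of 30 named members under 20 alternatives, 559 kept their direction and their side of the threshold, 19 kept only their direction and 10 changed sign. This tally does not cover every gene named above. It leaves out *Nkx2-2* and *Dlx5*, whose calls were lost in fits without 1 library. The count of members lower in d6PGCLCs was 24, and 22 to 24 without 1 library, 15 with filterByExpr and 16 with CPM above 1 in at least 3 libraries, since only 27 and 30 members were then tested. The count of members higher was 4, and 2 to 3 without 1 library, 2 without E12.5 PGC replicates 2 and 4, and 1 with a threshold of 2 on the absolute log2 fold change or of 0.01 on the adjusted p. Both lower Hox genes went untested under either filter, which left 0, and without any 1 library the count was 2 and the higher count 0. The log2 fold change of *Hoxa10* went from −3.98 to −6.36 without d6PGCLC replicate 4. Changes of sign concerned genes that were not called. *Hoxc13* (0.02) was −0.0255 with DESeq2, −0.0154 with library size scaling, −0.0224 with upper quartile scaling, and −0.32 to 0.28 without 1 library. *Meis2* (0.27) was −0.26 to 0.57 and *Meis3* (−0.10) was −0.33 to 0.17 without 1 library, and *Meis3* was 0.23 without E12.5 PGC replicates 2 and 4. The cause was not tested. Replicate numbers did not pair the libraries (correlations of deviations −0.04 to 0.30, with 1 of 4 E12.5 PGC replicates best matched to its own number). Searched from the d6PGCLC side, replicates 1 and 4 were best matched to their own numbers (0.30 and 0.04). A replicate block gave 22 lower and 4 higher members, 2 and 0 of them Hox genes. *Irx1* and *Lhx3*, not called, passed as lower without 1 of 2 libraries each. In a single library 3 counts are 0.249 to 0.383 CPM, and a level below that cannot be told from 0 there.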
